A study of Sus scrofa with 6 samples.

Results

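The postsynaptic scaffold and signalling genes described here are 36 genes chosen by name. They include the DLG, DLGAP, SHANK and HOMER scaffolds and the inhibitory scaffold GPHN. The adhesion proteins are the LRRTM family, SLITRK1, SLITRK3, SLITRK5, IL1RAPL1, LRRC4 and LRRC4B. The CaMKII subunits CAMK2A, CAMK2B and CAMK2G and 8 further signalling and spine proteins complete the list. All 36 were among the 17201 genes listed in the count files, and all 36 were tested. The samples were prefrontal cortex of Sus scrofa at 3 months of age. The VPA group was 3 animals (391, 392 and 393) exposed in early gestation to valproic acid at 75 mg/kg, and the control group was 3 animals (401, 402 and 408) labelled as untreated. VPA is an anticonvulsant and histone deacetylase inhibitor, and the series title presents the animals as a pig model of autism. Litter, sex and batch are not given in the labels, so p-values measure the spread between these 6 animals only.

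The postsynaptic density is a protein layer under the membrane of excitatory synapses. DLG proteins such as PSD-95 hold receptors and adhesion molecules at the membrane, DLGAP proteins link the DLG layer to SHANK proteins, and HOMER proteins tie SHANK to metabotropic glutamate receptors. CaMKII is the abundant kinase of this layer and is required for long-term potentiation. Mutations in several of these genes, SHANK3 among them, are associated with autism in humans. The inhibitory synapse has its own scaffold, gephyrin.

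Library totals ran from 16285517 to 17989032 counts, and 1 CPM (count per 1e6 counts of the library) was worth 16 to 18 reads. Each member had at least 189 counts in every library, the lowest being IL1RAPL1, and CAMK2A had at least 40490. The cortical glutamatergic genes SLC17A7 (1058 CPM in VPA, 1146 in controls) and TBR1 (135 and 150.0 CPM) were both expressed, as the labelled tissue would have. The striatal projection neuron list summed to 714 CPM in VPA 393, to 282 and 303 CPM in VPA 391 and 392, and to 226 to 254 CPM in the controls, so VPA 393 stood apart and the other VPA libraries also lay above all controls. Counts of the Y-linked gene EIF1AY were 450 to 548 in 4 libraries, 0 in VPA 392 and 2 in control 401.

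Per gene length, the members covered more than 3 orders of magnitude. NRGN, which encodes the small calmodulin-binding protein neurogranin, was the highest at 1269 FPKM in VPA and 1379 FPKM in controls (means, n = 3 each). CAMK2A followed at 333 and 330 FPKM. CAMK2B, DLG4 (PSD-95) and PPP1R9B, which encodes the actin-binding spine protein spinophilin, lay close together at 134, 139 and 133 FPKM in VPA and 141, 135 and 129 FPKM in controls. In VPA the ranges of these 3 genes overlapped, and in controls CAMK2B lay above PPP1R9B in every animal. At the low end were SLITRK3 (2.61 FPKM in VPA, 2.69 in controls), DLGAP2 (1.95 in each group) and IL1RAPL1 (0.717 and 0.691). FPKM depends on the gene length used for each gene, which was 1410 bases for NRGN and 26813 bases for DLGAP2. Levels of genes with long models are therefore lowered if a short isoform predominates.

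**Figure D1:**
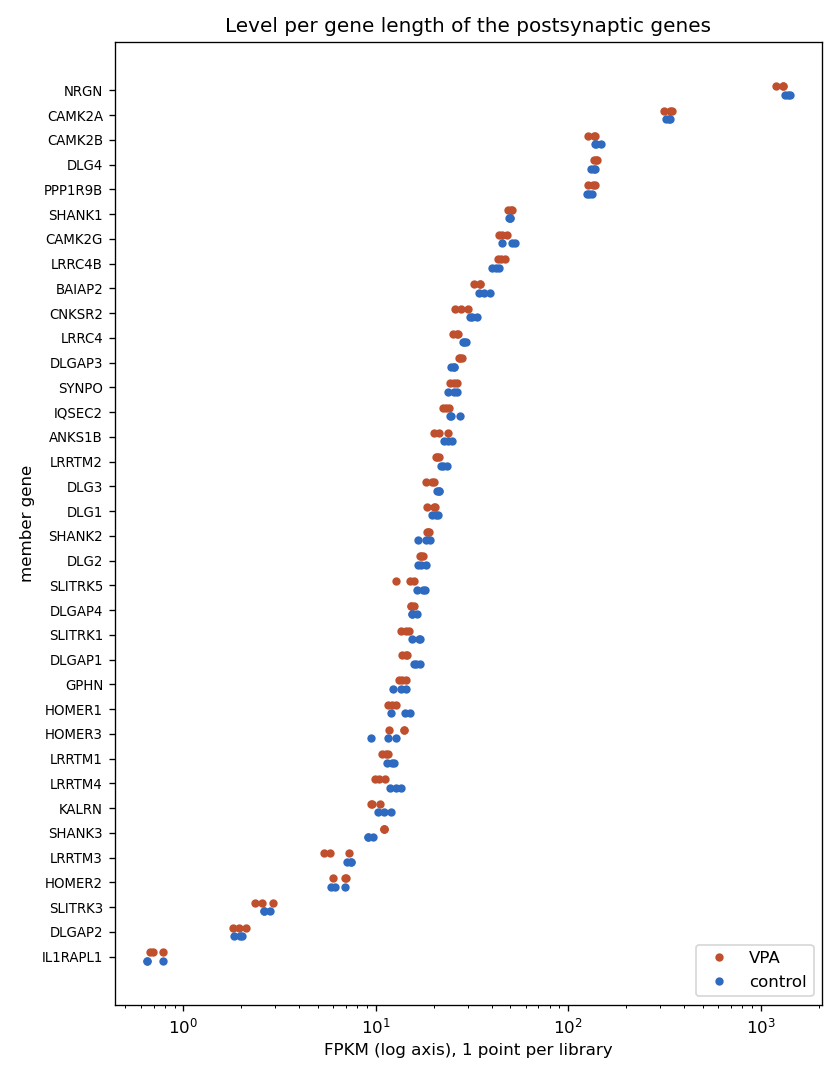
FPKM of each member gene (log axis), with 1 point per library, VPA above control within each row and genes ordered by their mean over the 6 libraries. NRGN is the highest gene and IL1RAPL1, below 1 FPKM, the lowest in every library, and the distance between genes is far larger than that between VPA and control.

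None of the 36 members passed an adjusted p of 0.05 between VPA and control cortex, and their differences were small, with 25 of the 36 log2 fold changes negative. SHANK3 stood highest relative to controls, at 118% of the control mean, and LRRTM4 lowest at 82.7%. The 7 members of the LRRTM and SLITRK families all had negative fold changes, as did 49.5% of all tested genes. Outside the members, SLITRK2 had a log2 fold change of 0.0027 and SLITRK4 one of -0.03. In edgeR's quasi-likelihood test with Benjamini-Hochberg adjustment over all genes, 0 members passed, against 0.362% of the 14373 genes tested (52 genes). At an unadjusted p under 0.05 there were 17 members, 15 lower and 2 higher in VPA. Of all tested genes 16.2% lay under it (7.47% lower and 8.69% higher). The members were measured more precisely than most genes. The median half-width of the confidence interval of the log2 fold change was 0.126 in members and 0.218 in all tested genes. The part of this precision in the members' larger share was not tested. DESeq2 called 3 members, SHANK3, DLGAP1 and CNKSR2, where it called 3.14% of the genes to which it gave an adjusted p. With robust dispersion edgeR called 1 member, SHANK3, and 1.17% of all genes.

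The members' median log2 fold change was -0.09, and that of all tested genes 0.0018. Negative fold changes made up 69.4% of members and 49.5% of all tested genes. CPM values of the groups did not overlap in 12 members, 10 with VPA below and 2 with VPA above, while 21.2% of all tested genes had no overlap (9.07% with VPA below and 12.1% with VPA above). The 95% intervals of all 36 members lay within 0.5 of 0 on the log2 scale, so none allowed a change of 1.5-fold in either direction.

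Among marker lists for cell types of cortex, the sums of pan-neuronal, glutamatergic and astrocyte genes did not overlap between the groups. Those of oligodendrocyte, interneuron and microglial genes did. Summed CPM of the 12 listed pan-neuronal genes was 12092 to 12719 in VPA and 13126 to 13302 in controls, and that of the 18 glutamatergic neuron genes 2090 to 2168 in VPA and 2324 to 2376 in controls. Neither neuronal list overlapped between groups. Oligodendrocyte genes summed to 17355 to 19516 CPM in VPA and 13312 to 17843 CPM in controls, and astrocyte genes to 12409 to 13996 and 11733 to 12372 CPM. Of the tested markers, 11 of 12 pan-neuronal and 13 of 17 glutamatergic genes had negative fold changes, and 14 of 15 oligodendrocyte and 9 of 11 astrocyte genes positive ones. Positive fold changes were also those of 12 of 13 striatal projection neuron genes, with a median log2 fold change of 0.95, an unadjusted p under 0.05 in 10 and VPA above controls without overlap in 8. Such a p was also that of 8 of 17 glutamatergic genes (47.1%, against 47.2% of the members) and 4 of 12 pan-neuronal genes, all lower in VPA. Over all tested genes 7.47% were lower and 8.69% higher with such a p. The median half-width of the confidence interval was 0.173 in glutamatergic, 0.113 in pan-neuronal and 0.218 in all tested genes. In edgeR 1 pan-neuronal gene was lower at an adjusted p of 0.048, where 0.362% of all tested genes passed 0.05. Interneuron genes summed to 1439 to 1535 CPM in VPA and 1479 to 1519 in controls, and microglial genes to 512 to 522 and 419 to 521. No marker was at 0 in every library. The part of these cell type differences in the members' values was not tested. In bulk tissue, fewer cells of a type and less RNA per cell cannot be told apart.

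The members' summed CPM was 10216 to 10269 in VPA and 10441 to 10690 in controls, with no overlap. Set against the pan-neuronal sum, the members stood at 0.807, 0.821 and 0.845 in VPA 391, 392 and 393 and at 0.795, 0.798 and 0.804 in controls 401, 402 and 408. Against the glutamatergic sum the ratio was 4.74 to 4.89 in VPA and 4.46 to 4.55 in controls. The members' sum was thus lower in VPA as CPM and higher in VPA per neuronal marker read. For the pan-neuronal ratio the margin was narrow, with VPA 391 at 0.807 and control 408 at 0.804. Both ratios were chosen after values were seen. Sums are weighted towards abundant genes. The median log2 fold change per gene was -0.09 in the members, -0.08 in the pan-neuronal list and -0.18 in the glutamatergic list. CAMK2A and NRGN made up 40.8% to 42.3% of the members' sum in VPA and 40.8% to 42.0% in controls.

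**Figure D2:**
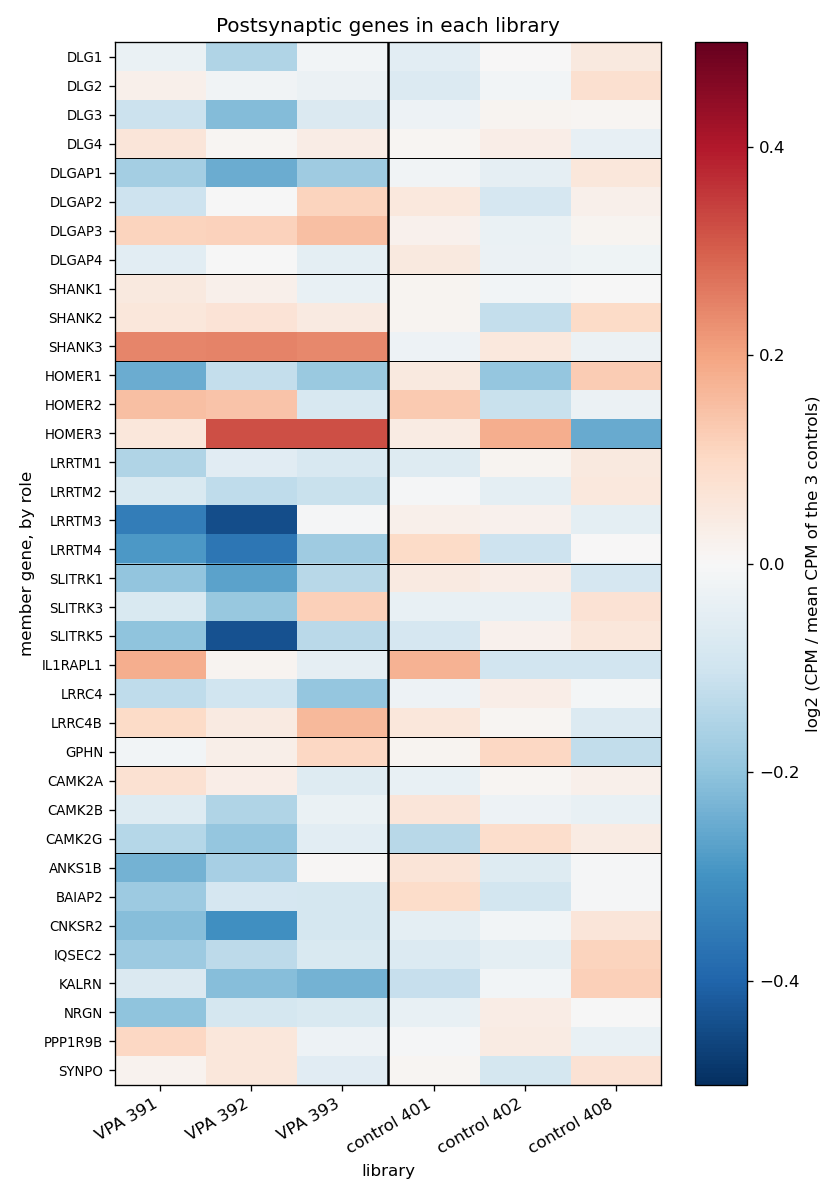
CPM of each member in each library, as log2 of its ratio to the mean of the 3 controls, with genes grouped by role and VPA libraries left of the line. Blue cells lie below the control mean and red cells above; SHANK3 is red in all 3 VPA libraries, and DLGAP1, LRRTM4, SLITRK1, SLITRK5 and CNKSR2 are blue in all 3.

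Among the DLG scaffolds, only DLG3 had groups that did not overlap. DLG3 encodes SAP102, the form prominent early in development, and had 151, 140 and 154 CPM in VPA 391, 392 and 393 against 160, 164 and 163 CPM in controls 401, 402 and 408. Its log2 fold change was -0.14 ± 0.051 (SE), with an adjusted p of 0.20 in edgeR. DLG4, the PSD-95 gene, had 537, 518 and 529 CPM in VPA and 518, 527 and 501 CPM in controls. The DLG4 groups overlapped, and the 95% interval of its log2 fold change ran from -0.079 to 0.12. DLG1 (SAP97) and DLG2 (PSD-93) likewise overlapped, with log2 fold changes of -0.08 ± 0.053 and -0.02 ± 0.053. That of DLG1 was -0.04 without VPA 392, -0.05 without control 408 and -0.11 without control 401.

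The DLGAP genes lay on different sides of controls. DLGAP1 had 312, 296 and 311 CPM in VPA 391, 392 and 393 against 347, 341 and 366 CPM in controls 401, 402 and 408. All 3 VPA animals lay below all 3 controls. Its log2 fold change was -0.21 ± 0.049, with an adjusted p of 0.083 in edgeR and 0.012 in DESeq2, and 0.012 to 0.26 over 18 alternatives. DLGAP3, whose deletion in mice causes compulsive grooming, had 162, 162 and 166 CPM in VPA against 152, 147 and 151 CPM in controls. Here all VPA animals lay above all controls, with a log2 fold change of 0.11 ± 0.044 and an adjusted p of 0.24 in edgeR. DLGAP2 and DLGAP4 had overlapping groups and log2 fold changes of -0.0082 ± 0.073 and -0.05 ± 0.045.

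SHANK3 had the lowest p of all members. It had 160.3, 160.4 and 159.6 CPM in VPA 391, 392 and 393 and 133, 140.2 and 133 CPM in controls 401, 402 and 408. All VPA values lay above all control values. The mean was 160.1 ± 0.471 CPM in VPA and 135 ± 4.27 CPM in controls (SD, n = 3 each). The log2 fold change was 0.23 ± 0.047, with an adjusted p of 0.065 in edgeR, 0.048 with robust dispersion and 0.015 in DESeq2. Over 18 alternatives its log2 fold change ran from 0.21 to 0.25, and its adjusted p reached 0.22. The coefficient of variation of SHANK3 in VPA, 0.294%, was below the 1.92% that counting error alone gives at this depth.

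The other SHANK genes showed no such gap. SHANK1 had 333, 328 and 314 CPM in VPA and 325, 320 and 322 CPM in controls, with a 95% interval of its log2 fold change from -0.10 to 0.10. SHANK2 had 171, 172 and 169 CPM in VPA and 166, 151 and 175 CPM in controls. The SHANK2 groups overlapped, and its log2 fold change was 0.04 ± 0.057.

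HOMER1 varied more between controls than between VPA animals. It encodes the long scaffold forms of HOMER and a short, activity-induced form, which gene counts do not separate, and had 152, 166 and 159 CPM in VPA 391, 392 and 393 and 187, 158 and 197 CPM in controls 401, 402 and 408. Control 402 lay within the VPA range. The log2 fold change of HOMER1 was -0.20 ± 0.075 (adjusted p of 0.24 in edgeR), -0.29 without control 402 and -0.13 without control 408. HOMER3 had 21.8, 26.2 and 26.2 CPM in VPA and 21.5, 23.7 and 17.6 CPM in controls. Its log2 fold change of 0.23 ± 0.12 was 0.12 without control 408 and 0.32 without control 402. HOMER2 overlapped at 70.3 to 82.5 CPM in VPA and 68.7 to 81.4 CPM in controls.

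**Figure D3:**
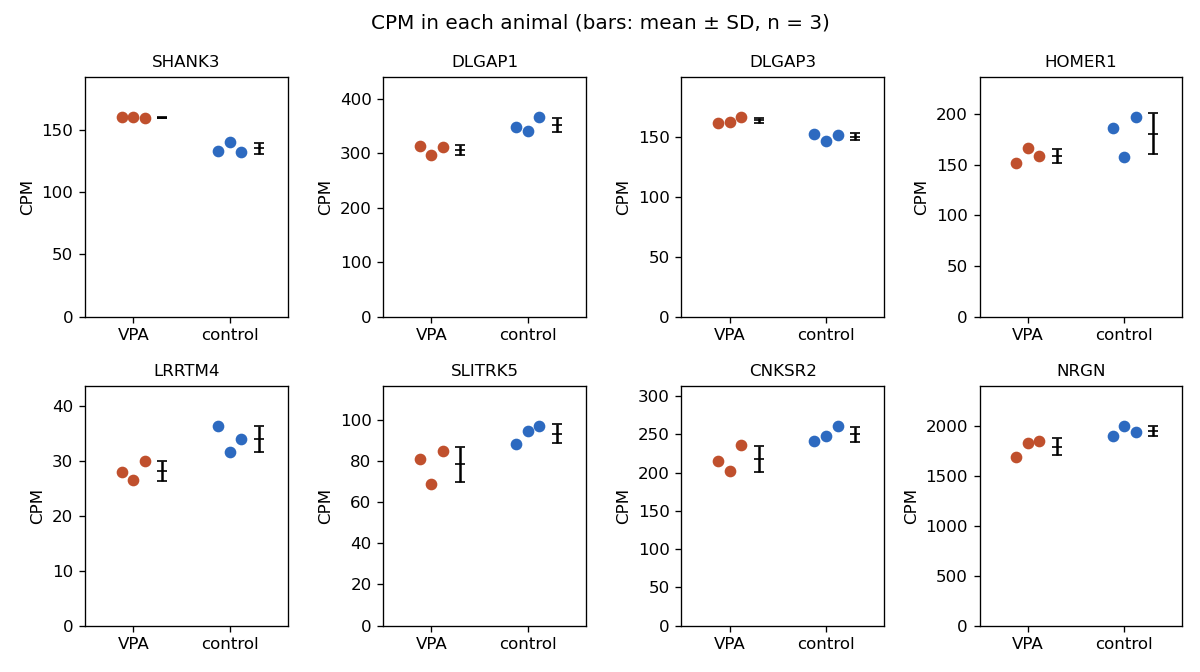
CPM of 8 members in each animal (VPA left, control right), with bars for mean ± SD and axes from 0. SHANK3 and DLGAP3 lie higher in all VPA animals than in any control, HOMER1 overlaps through control 402, and the other 5 lie lower in all VPA animals than in any control.

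LRRTM proteins are leucine-rich postsynaptic adhesion molecules, and LRRTM2 binds presynaptic neurexins. All 4 had negative fold changes. LRRTM4, a ligand of heparan sulphate proteoglycans, had 27.9, 26.5 and 30.1 CPM in VPA 391, 392 and 393 against 36.4, 31.7 and 34.1 CPM in controls 401, 402 and 408. The LRRTM4 groups did not overlap, and its log2 fold change was -0.29 ± 0.083, the most negative of the members (adjusted p of 0.13 in edgeR). LRRTM2 had 129, 125 and 126 CPM in VPA and 135, 132 and 141 CPM in controls, again without overlap (-0.12 ± 0.049, adjusted p of 0.27).

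LRRTM3 differed between the VPA animals. It had 52.3, 48.8 and 66.2 CPM in VPA 391, 392 and 393, against 67.7, 67.5 and 64.2 CPM in controls 401, 402 and 408. Animal 393 lay within the control range and the other 2 VPA animals below it. The log2 fold change of LRRTM3 was -0.26 ± 0.098 with all libraries and -0.40 without VPA 393, with adjusted p of 0.22 and 0.066 in edgeR, and it was -0.17 in the 4 libraries with EIF1AY counts. LRRTM1 had overlapping groups, at 48.2 to 51.5 CPM in VPA and 51.1 to 55.4 CPM in controls.

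SLITRK proteins bind presynaptic receptor tyrosine phosphatases. SLITRK1, rare variants of which have been described in Tourette syndrome, had 72.8, 69.3 and 75.8 CPM in VPA 391, 392 and 393 against 86.1, 85.4 and 78.8 CPM in controls 401, 402 and 408. SLITRK5 had 81.1, 69.0 and 85.0 CPM in VPA against 88.2, 94.8 and 97.0 CPM in controls. Neither gene's groups overlapped, and VPA 392 was the lowest library in both. Log2 fold changes were -0.21 ± 0.060 for SLITRK1 and -0.26 ± 0.078 for SLITRK5, with adjusted p of 0.13 and 0.14 in edgeR. SLITRK3, which acts at inhibitory synapses, had 35.2, 32.5 and 40.3 CPM in VPA and 36.1, 36.1 and 38.9 CPM in controls, and overlapped.

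The remaining adhesion genes were mixed. LRRC4 (NGL-2), a ligand of netrin-G2, had 88.5, 90.3 and 84.6 CPM in VPA 391, 392 and 393 against 95.1, 98.9 and 96.1 CPM in controls 401, 402 and 408, without overlap (log2 fold change -0.15 ± 0.053, adjusted p of 0.20 in edgeR). LRRC4B (NGL-3) lay the other way and overlapped, with 160.5, 155 and 168 CPM in VPA and 156, 151 and 143 CPM in controls. IL1RAPL1, an X-linked intellectual disability gene in humans, had 13.6, 12.1 and 11.6 CPM in VPA and 13.5, 11.2 and 11.2 CPM in controls, with overlap. GPHN, the gephyrin gene, had 64.3, 66.3 and 69.7 CPM in VPA and 65.5, 69.8 and 59.6 CPM in controls, with a 95% interval of its log2 fold change from -0.13 to 0.18.

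The CaMKII subunit genes among the members, CAMK2A, CAMK2B and CAMK2G, overlapped between groups. CAMK2A, the most abundant member by counts, had 2561, 2486 and 2324 CPM in VPA 391, 392 and 393 and 2369, 2446 and 2476 CPM in controls 401, 402 and 408. Its log2 fold change was 0.0034 ± 0.055, with a 95% interval from -0.12 to 0.13. CAMK2B, whose subunit binds actin, had a log2 fold change of -0.10 ± 0.050, which was -0.06 without VPA 392 and -0.04 in the 4 libraries with EIF1AY counts. CAMK2G, the more widely expressed subunit, had 251, 242 and 267 CPM in VPA and 252, 294 and 285 CPM in controls (-0.14 ± 0.064, adjusted p of 0.31 in edgeR, and -0.22 without control 401).

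Of the 8 other signalling and spine genes, 7 had negative fold changes, and 6 of these had an unadjusted p under 0.05. Of all tested genes 49.5% were negative, and 7.47% were lower in VPA with such a p. The median half-width of the confidence interval was 0.127 in these 8 genes and 0.218 in all tested genes. CNKSR2, a scaffold of Ras signalling that is X-linked in humans, had 216, 202 and 236 CPM in VPA 391, 392 and 393 against 242, 248 and 261 CPM in controls 401, 402 and 408. All VPA values lay below all control values, with a log2 fold change of -0.21 ± 0.060 and an adjusted p of 0.13 in edgeR and 0.044 in DESeq2. NRGN had 1690, 1832 and 1846 CPM in VPA against 1895, 1997 and 1943 CPM in controls. Its groups did not overlap either (-0.13 ± 0.051, adjusted p of 0.24). IQSEC2, an exchange factor for the GTPase ARF6, had 167, 173 and 180 CPM in VPA and 180.4, 183 and 204 CPM in controls, with VPA 393 just under control 401. Its log2 fold change was -0.14 ± 0.058, and -0.08 without control 408.

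KALRN, ANKS1B and BAIAP2 had negative fold changes with groups that overlapped. KALRN, an exchange factor of dendritic spines, had 186, 169 and 166 CPM in VPA 391, 392 and 393 and 181, 194 and 213 CPM in controls 401, 402 and 408 (log2 fold change -0.18 ± 0.070, adjusted p of 0.23 in edgeR, and -0.12 without control 408). ANKS1B (AIDA-1), which binds PSD-95, had 213, 223 and 251 CPM in VPA and 262, 240 and 249 CPM in controls. In BAIAP2 (IRSp53), an adaptor between Rac and actin, the overlap was by VPA 392 and 393 at 175 CPM each and control 402 at 174 CPM. SYNPO, the spine apparatus protein synaptopodin, and PPP1R9B had log2 fold changes of -0.0051 ± 0.057 and 0.03 ± 0.053.

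**Figure D4:**
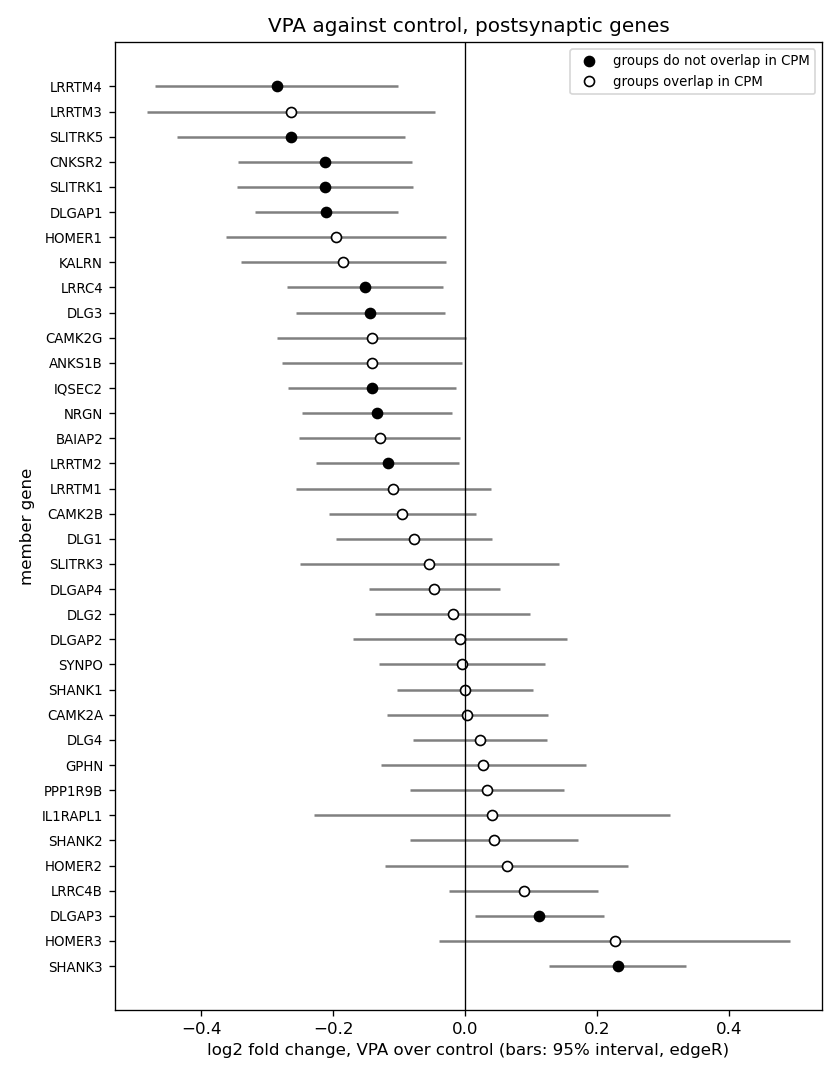
Log2 fold change of each member, VPA over control, with 95% intervals from edgeR and filled points where the groups do not overlap in CPM. The estimates run from -0.29 for LRRTM4 to 0.23 for SHANK3, and 19 of the 36 intervals include 0.

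The mix of members within families was compared per gene length, in 6 families. Each share was that of 1 gene in the summed FPKM of the members of its family. SHANK3 made up 13.6%, 13.7% and 14.1% of SHANK FPKM in VPA 391, 392 and 393 and 11.8%, 12.8% and 11.7% in controls 401, 402 and 408. DLGAP1 made up 24.7%, 23.4% and 24.2% of DLGAP FPKM in VPA and 26.9%, 27.4% and 28.4% in controls. HOMER1 stood at 38.3%, 37.6% and 37.7% of HOMER FPKM in VPA and 43.5%, 39.3% and 49.1% in controls. In these 3 families the groups did not overlap, and for HOMER1 the controls were spread over a far wider range than the VPA animals.

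DLG4 also had shares without overlap, at 71.2% ± 0.455 in VPA and 69.7% ± 1.10 in controls (SD, n = 3 each). For these 4 shares the exact two-sided permutation test gave p = 0.10, the smallest that 3 against 3 animals allow, and 0.15 adjusted over the 6 families. CAMK2A averaged 65.0% ± 1.87 of the summed FPKM of CAMK2A, CAMK2B and CAMK2G in VPA and 63.3% ± 0.757 in controls (exact p = 0.30). CAMK2D, a CaMKII gene outside the members, was not in this sum and had 37.5 FPKM in VPA and 35.3 in controls. LRRTM2 averaged 43.0% ± 1.62 of LRRTM FPKM in VPA and 41.3% ± 0.636 in controls (exact p = 0.20). In both of these VPA 393 lay among the controls.

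**Figure D5:**
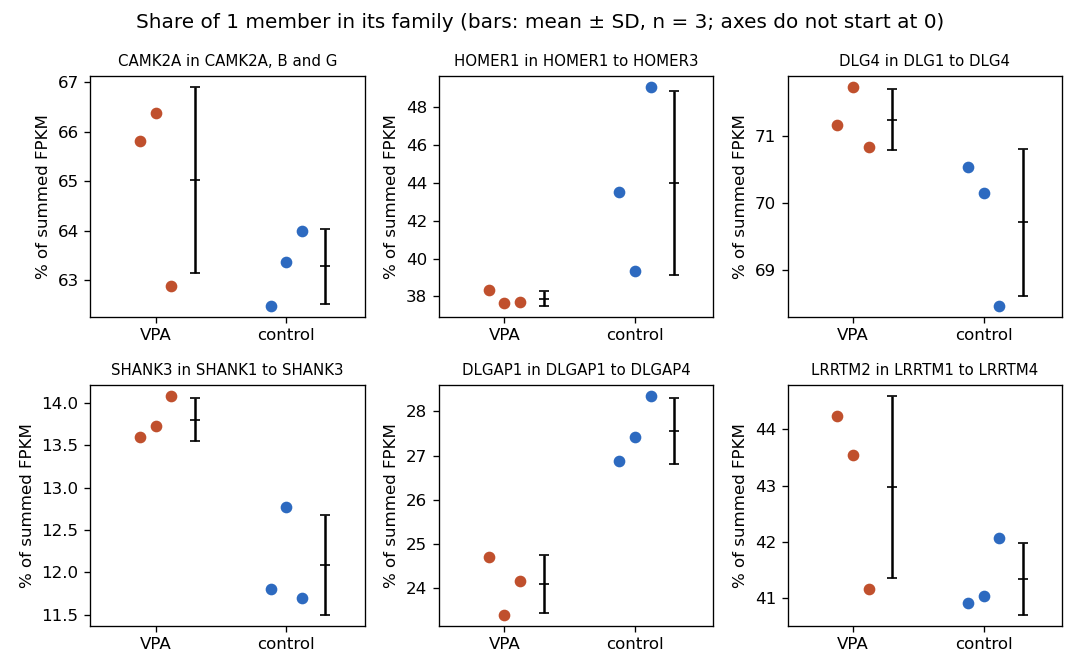
Share of 1 gene in the summed FPKM of the members of its family in each animal (VPA left, control right). Bars give mean ± SD, and axes do not start at 0. The SHANK3 and DLG4 shares are higher in all VPA animals than in any control, the DLGAP1 and HOMER1 shares lower, and the CAMK2A and LRRTM2 shares overlap.

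The animals differed in how often they were an extreme. VPA 392 was the lowest library in 12 members and the highest in 1, while control 408 was the highest in 12 and the lowest in 7. VPA 393 was the lowest in 4 members and the highest in 5. Without VPA 393 the members' median log2 fold change was -0.11, with 23 of 36 negative, and without VPA 392 it was -0.06, with 25 negative. Among the 4 libraries with EIF1AY counts (VPA 391 and 393, controls 402 and 408) the median was -0.06 with 25 negative. There, log2 fold changes of the genes that are X-linked in humans were -0.12 for DLG3, -0.19 for CNKSR2, -0.18 for IQSEC2 and 0.15 for IL1RAPL1. All 4 had the direction they had with all libraries, but IL1RAPL1 was negative without VPA 391, control 402 or control 408.

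Beyond the 36 members, 104 further genes of the postsynapse were listed by name, of which 101 were in the files and 100 tested. None passed an adjusted p of 0.05 in edgeR, 22 had an unadjusted p under 0.05 (20 lower and 2 higher in VPA), and DESeq2 called 2, EPHA4 among them. Over all genes the shares were 16.2% under that p (7.47% lower and 8.69% higher) and 3.14% called by DESeq2. Neither the total of 22 nor the DESeq2 count stood far above the background. By direction, the 20 lower of 100 tested genes exceeded the 7.47% of all genes, and the 2 higher were below the 8.69%. The median half-width of the confidence interval was 0.140 in these 100 genes and 0.218 in all tested genes. The list was made with earlier results of these data known, so these shares describe the list and test nothing. The median log2 fold change of these 100 genes was -0.03, with 63 negative, where 49.5% of all tested genes were negative. EPHA4, an ephrin receptor of spines, had 109, 109 and 119 CPM in VPA 391, 392 and 393 against 122, 137 and 133 CPM in controls 401, 402 and 408 (adjusted p of 0.11 in edgeR and 0.045 in DESeq2). All VPA animals lay below all controls.

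Low p-values on the lower side also belonged to MPP2, a scaffold of the same guanylate kinase family as DLG4 (log2 fold change -0.17 ± 0.050), and SYNPO2 (-0.26 ± 0.075). On the higher side the lowest p-values were those of TNIK, a kinase of the postsynaptic density (0.15 ± 0.050, adjusted p of 0.17 in edgeR), ANKS1A (0.24 ± 0.094), AGAP2 (0.11 ± 0.053, and 0.07 without VPA 391) and CTNNB1, the beta-catenin gene (0.10 ± 0.047). TNIK had 206, 197 and 217 CPM in VPA and 185, 178 and 190.0 CPM in controls, without overlap.

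At an adjusted p under 0.1, edgeR's count was 2 of the 36 members, SHANK3 and DLGAP1, and 2.39% of all tested genes. These 2 lay on opposite sides of controls.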

How the data were processed

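Libraries were prepared from TRIzol-extracted RNA with the VAHTS Universal V6 kit, per the labels. Not given in the sources used here are the aligner, counter, strandedness, build and annotation behind the counts. The authors deposited raw counts and FPKM per gene for each library. All 97071 nonzero FPKM values equalled the count scaled by the file total and a whole-number gene length (within 0.02 bases), so both units hold the same measurement. CPM were computed from file totals.

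The 14373 genes that passed filterByExpr were tested in R 4.3.3 with edgeR 4.0.16 (TMM, glmQLFit, glmQLFTest, no covariate, 4 residual degrees of freedom, Benjamini-Hochberg over all genes, threshold 0.05). Standard errors were derived from the F statistic. Family shares of FPKM were compared by exact permutation. Alternatives used other scaling and filters, DESeq2 1.42.0, limma 3.58.1, robust dispersion, the 4 libraries with at least 10 EIF1AY counts, and each library left out. In simulated counts over 14373 genes for this comparison, edgeR recovered 28% of 1.25-fold and 72% of 1.5-fold changes. The changed genes were drawn at random from all tested genes, and 149 genes were called there against 52 in the data. These rates are therefore not those of the 36 members.

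The members and lists were chosen with earlier results of these data known. Every member is named; of the further postsynaptic genes, the 4 with the lowest p in each direction, of which some are not reported here. The plotted members and the ratios to marker sums were chosen after values were seen. Reads that genes share through overlap or similar sequence cannot be separated here.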

Additional observations from a re-analysis of the deposited data

How the results depend on the processing

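No paired analysis was run, because the labels give neither litter nor any pairing of VPA with control animals. The 52 genes called became 141 without a filter, 435 in DESeq2, 30 in limma-voom, 168 with robust dispersion and 344 at an adjusted p of 0.1. They became 2, 2 and 1 in limma on FPKM (pseudocount 1, pseudocount 0.1, and pseudocount 1 with no filter), 0 in the 4 EIF1AY libraries, and 0 to 66 without 1 library (0 without VPA 391 or 392, 1 without VPA 393, 5 without control 402, 2 without control 408). The members called became 3 in DESeq2, 1 with robust dispersion and 2 at an adjusted p of 0.1, and the further postsynaptic genes called became 2 in DESeq2. The 17 members with an unadjusted p under 0.05 became 10, 10 and 9 in limma on FPKM, 9 in the EIF1AY libraries and 10 to 16 without 1 library (11 without VPA 391, 10 without VPA 392 or control 408). The members' median was -0.064 in the EIF1AY libraries and -0.11 to -0.063 without 1 library. The cause of these shifts was not tested.

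All members whose sign changed had log2 fold changes near 0. SHANK1 was 0.0039 with upper quartile scaling, 0.012 with library size only, and 0.011 in limma on FPKM in all 3 settings. DLGAP2 was 0.0048 with library size only, 0.0024, 0.0031 and 0.0024 in limma, and 0.015 in the EIF1AY libraries. SYNPO was 0.0073 with library size only and 0.0079, 0.0083 and 0.0079 in limma. CAMK2A was -0.0020 without a filter and -0.032 in the EIF1AY libraries. Without 1 library, values ran from -0.063 to 0.023 for DLG2, -0.0020 to 0.035 for DLG4, -0.031 to 0.029 for SHANK1, -0.017 to 0.096 for SHANK2, -0.059 to 0.030 for DLGAP2, -0.040 to 0.13 for IL1RAPL1, -0.14 to 0.013 for SLITRK3, -0.029 to 0.076 for GPHN, -0.040 to 0.047 for CAMK2A, -0.0094 to 0.073 for PPP1R9B and -0.052 to 0.034 for SYNPO. The 6 family shares kept their sign in CPM and without each library. Every member had at least 189 counts per library.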
